A study of Homo sapiens with 8 samples.

Results

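NRXN3, GRIN2A, GRIN2B, DLG2, CNTNAP2, CSMD1, RBFOX1, NLGN1 and GABRG3 are very long human genes used mainly by neurons, most of them at the synapse. They were chosen by name, with earlier results of these data known, so the peak densities and changed regions given for them are a description and carry no test. They are 9 of 19974 protein-coding genes on chromosomes 1 to 22 and X. Each gene was taken over its RefSeq span (assembly GRCh38.p14, which matches the hg38 of the peaks) with 5 kb added on each side. The 9 spans covered 13.1 Mb and held 364 of 129052 accessible regions.

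The data come from ATAC-seq, which reads out open chromatin by where a transposase can insert adapters, in U2OS, an established human osteosarcoma line. The conditions were siOrc6 with H2O2, siGl3 with H2O2, siOrc6 untreated and siGl3 untreated, with 2 libraries each, numbered by batch. siOrc6 targets Orc6, a subunit of the complex that marks replication origins, and siGl3 is the control siRNA. All cells carried an siRNA for 72 h, were arrested with thymidine applied in a double block, and had 3 h of release, so that all conditions are early S phase cells; H2O2 was given at 5 mM for 30 min. Each condition had 1 deposited peak list, named for both libraries, with no value per library and no read count; how each library entered it is not stated there. Depth and the spread between libraries are therefore unknown, and no difference between conditions below has a test. The lists do not check the knockdown, and in a bulk culture a site open in fewer cells cannot be told apart from one less open in each cell.

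At a synapse, neurexins on the sending neuron bind neuroligins on the receiving one, and scaffold proteins beneath the receiving membrane hold glutamate receptors in place. Genes of this kind have some of the longest introns of the genome, and several very long genes replicate late in S phase. Of the genes described, NRXN3 encodes a neurexin, NLGN1 a neuroligin and CNTNAP2 a neurexin relative that gathers potassium channels on axons. GRIN2A and GRIN2B encode subunits of the NMDA-type glutamate receptor, GABRG3 a subunit of the inhibitory GABA-A receptor and DLG2 the postsynaptic scaffold PSD-93. RBFOX1 is a splicing regulator of neurons and muscle and CSMD1 a membrane protein related to complement control, so the synaptic name describes the other 7 better than these. U2OS is not a neural line, and peaks at marker genes did not separate cell types: an end was open in every condition in 9 of 12 neuronal, 7 of 12 osteoblast, 3 of 8 blood and 4 of 8 epithelial markers.

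The letters of start windows are shown first, because these windows differed between accessible and inaccessible starts of the same gene. RefSeq lists 25 start windows in 8 of the genes, each from 250 bases before to 50 bases after a transcription start (GRCh38.p14); CSMD1 is named only. The first 3 lie in DLG2, on the minus strand: the start of highest coordinate, chr11:85628324-85628623, with a peak in all 4 lists; an inner start, chr11:84273231-84273530, with none; and an inner start, chr11:84437757-84438056, with a peak in untreated siOrc6 cells alone. The next 3 lie in RBFOX1, on the plus strand: chr16:6018774-6019073 with a peak in all 4 lists, chr16:6483136-6483435 at a region called higher in siOrc6 in both treatments, and chr16:7332595-7332894 with no peak. The last pair is chr12:13980796-13981095 of GRIN2B on the minus strand, with a peak in both H2O2 lists and in neither untreated list, and chr14:78170123-78170422 of NRXN3 on the plus strand, which had a peak in all 4 lists with few CpG. All are written 5′ to 3′ with CpG dinucleotides in capitals.
DLG2 start 85628373: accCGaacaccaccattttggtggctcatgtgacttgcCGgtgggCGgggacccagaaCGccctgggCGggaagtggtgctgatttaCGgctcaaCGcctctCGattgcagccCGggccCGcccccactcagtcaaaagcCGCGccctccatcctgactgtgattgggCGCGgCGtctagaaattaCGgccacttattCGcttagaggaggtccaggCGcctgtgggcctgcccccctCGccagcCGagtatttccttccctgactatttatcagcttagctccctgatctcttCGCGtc
DLG2 start 84273280: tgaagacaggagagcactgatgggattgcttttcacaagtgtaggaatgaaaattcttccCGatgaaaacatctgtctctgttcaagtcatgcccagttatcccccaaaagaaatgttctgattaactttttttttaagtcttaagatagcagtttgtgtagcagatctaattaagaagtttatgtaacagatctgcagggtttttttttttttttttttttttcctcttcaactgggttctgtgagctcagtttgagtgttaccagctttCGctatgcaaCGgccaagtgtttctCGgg
DLG2 start 84437806: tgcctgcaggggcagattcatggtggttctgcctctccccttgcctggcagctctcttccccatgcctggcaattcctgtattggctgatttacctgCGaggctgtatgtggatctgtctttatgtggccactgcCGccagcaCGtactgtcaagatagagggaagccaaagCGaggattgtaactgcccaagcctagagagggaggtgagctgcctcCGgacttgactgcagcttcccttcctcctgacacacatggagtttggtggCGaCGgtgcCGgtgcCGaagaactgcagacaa
RBFOX1 start 6019024: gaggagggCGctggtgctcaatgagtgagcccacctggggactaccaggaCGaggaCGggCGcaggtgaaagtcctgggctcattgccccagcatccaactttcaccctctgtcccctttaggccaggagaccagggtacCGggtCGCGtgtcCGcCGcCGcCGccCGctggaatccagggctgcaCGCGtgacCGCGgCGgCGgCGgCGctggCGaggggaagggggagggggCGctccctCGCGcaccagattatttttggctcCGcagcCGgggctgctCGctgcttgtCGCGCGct
RBFOX1 start 6483386: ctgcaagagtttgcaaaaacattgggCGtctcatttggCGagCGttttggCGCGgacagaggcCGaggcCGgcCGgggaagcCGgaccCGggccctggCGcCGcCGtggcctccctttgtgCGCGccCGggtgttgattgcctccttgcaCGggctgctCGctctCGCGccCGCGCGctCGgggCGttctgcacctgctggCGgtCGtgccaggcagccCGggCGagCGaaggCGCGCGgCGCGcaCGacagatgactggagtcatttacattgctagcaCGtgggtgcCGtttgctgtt
RBFOX1 start 7332845: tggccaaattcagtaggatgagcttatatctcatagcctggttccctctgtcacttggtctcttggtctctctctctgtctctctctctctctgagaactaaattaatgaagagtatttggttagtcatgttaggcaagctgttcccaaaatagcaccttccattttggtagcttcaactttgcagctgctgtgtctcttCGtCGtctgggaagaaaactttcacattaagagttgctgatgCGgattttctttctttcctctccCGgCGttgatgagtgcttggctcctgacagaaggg
GRIN2B start 13980845: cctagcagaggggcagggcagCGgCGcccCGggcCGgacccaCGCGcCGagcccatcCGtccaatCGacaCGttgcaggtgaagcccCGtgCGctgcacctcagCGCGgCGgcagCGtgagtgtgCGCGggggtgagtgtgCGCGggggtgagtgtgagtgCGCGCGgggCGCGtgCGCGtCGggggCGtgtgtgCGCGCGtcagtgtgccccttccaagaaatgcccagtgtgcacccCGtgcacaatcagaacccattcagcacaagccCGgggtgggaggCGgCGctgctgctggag
NRXN3 start 78170373: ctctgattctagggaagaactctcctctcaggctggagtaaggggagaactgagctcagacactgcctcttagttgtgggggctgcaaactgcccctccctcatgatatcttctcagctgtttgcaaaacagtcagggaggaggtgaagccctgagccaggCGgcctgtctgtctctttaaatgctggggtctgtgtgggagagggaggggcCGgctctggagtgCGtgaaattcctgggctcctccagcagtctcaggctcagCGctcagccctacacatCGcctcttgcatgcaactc

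Peaks of the 4 lists that overlapped or touched were joined into merged peaks, and their number was divided by the span to allow for gene length. The receptor genes and RBFOX1 were the densest, and NLGN1, CSMD1 and CNTNAP2 the sparsest. The NMDA receptor gene GRIN2A (chromosome 16, 9753404 to 10182908) held 30 merged peaks, or 68.3 per Mb (95% exact Poisson interval 46.1 to 97.4, which covers counting error only). GRIN2B (chromosome 12, 13537337 to 13982134) held 24, or 52.8 per Mb (33.8 to 78.5). GABRG3 (chromosome 15, 26971181 to 27541984) held 29, or 49.9 per Mb (33.4 to 71.7). RBFOX1 (chromosome 16, 5239721 to 7713340), the longest of the 9, held 123, or 49.5 per Mb (41.2 to 59.1). These 4 intervals overlap, so their order is not resolved.

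NRXN3 (chromosome 14, 78170373 to 79868291) held 64 merged peaks, or 37.5 per Mb (28.9 to 47.9), and DLG2 (chromosome 11, 83455012 to 85628373) 49, or 22.4 per Mb (16.6 to 29.7). NLGN1 (chromosome 3, 173395952 to 174294372) held 13, or 14.3 per Mb (7.62 to 24.5). CSMD1 (chromosome 8, 2935361 to 4994914) held 21, or 10.1 per Mb (6.28 to 15.5). CNTNAP2 (chromosome 7, 146116801 to 148420998) had the fewest at 11, or 4.75 per Mb (2.37 to 8.50). Every pair of neighbours in this order has overlapping intervals, while the interval of CNTNAP2 lies below those of the first 6 genes. Per Mb, the 3 adhesion genes lay at 37.5 (NRXN3), 14.3 (NLGN1) and 4.75 (CNTNAP2), all below the 3 receptor genes. The interval of NRXN3 overlaps those of all 3 receptor genes, which are the shortest of the 9. Division by the span does not remove length fully: a straight-line fit of log2 count on log2 span had a slope of 0.594. Relative to the count expected from that fit, NRXN3 (2.31) lay above GABRG3 (2.01) and GRIN2B (1.93), and below GRIN2A (2.45). RBFOX1 was highest at 3.55, and NLGN1 (0.704) and CNTNAP2 (0.344) stayed below the receptor genes.

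**Figure D1:**
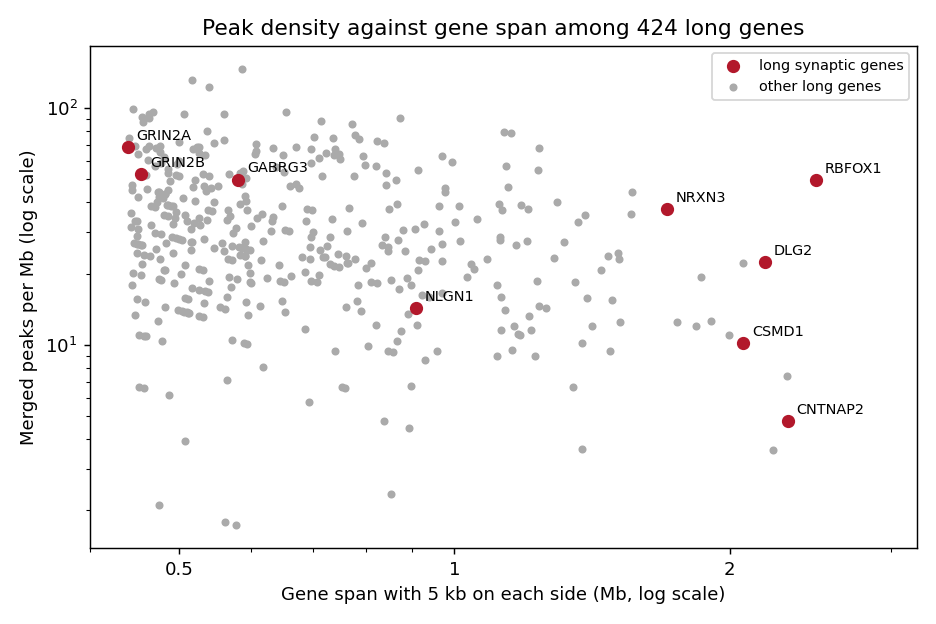
Merged peaks per Mb (log axis) against gene span with 5 kb on each side (Mb, log axis) for 424 protein-coding genes of at least 429505 bp, with the 9 long synaptic genes in red and the other long genes in grey; 2 long genes with no merged peak are not drawn. GRIN2A stands at 68.3 per Mb and CNTNAP2 at 4.75 per Mb, and the 9 genes spread over most of the grey cloud.

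Among genes at least as long as the shortest of them, the 9 genes spread over most of the ranks. Long genes were taken as the 424 protein-coding genes of at least 429505 bp, the length of GRIN2A. The median was 37.5 merged peaks per Mb over the 9 genes, against 27.1 over the 415 other long genes and 64.2 over all protein-coding genes. The median length was 1697919 bp over the 9 genes, that of NRXN3, and 597172 bp over the other long genes. The sets are therefore not matched for length. By density, GRIN2A ranked 36 of 424, GRIN2B 79, GABRG3 89, RBFOX1 92, NRXN3 142, DLG2 269, NLGN1 348, CSMD1 390 and CNTNAP2 414. Without RBFOX1 the median of the other 8 was 30.0 per Mb. Among the 18 genes of at least 1.5 Mb, RBFOX1 ranked 1, NRXN3 3, DLG2 7, CSMD1 15 and CNTNAP2 17, with DMD last at 3.59 per Mb. The pattern over the 4 lists most like the median of the 9 genes, by root mean square difference of log2 density among long genes, was that of ARHGAP24, CALN1 and AGBL1, with 37.2, 34.0 and 38.5 merged peaks per Mb.

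Peaks covered 4.90% of GRIN2A, 3.06% of GRIN2B, 2.74% of GABRG3, 2.64% of RBFOX1, 1.87% of NRXN3, 1.08% of DLG2, 0.625% of NLGN1, 0.335% of CSMD1 and 0.201% of CNTNAP2. The order by coverage is the order by number per Mb. The longest stretch of CNTNAP2 with no peak in any list was 850 kb, or 36.9% of the gene. It was 383 kb in CSMD1, 283 kb in DLG2, 174 kb in NLGN1, 143 kb in RBFOX1 and 135 kb in NRXN3. In the receptor genes the longest such stretch was 72.3 kb in GABRG3, 66.1 kb in GRIN2B and 53.6 kb in GRIN2A. No genome or exon annotation was used, so whether a peak lies in an exon or an intron was not analysed here.

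**Figure D2:**
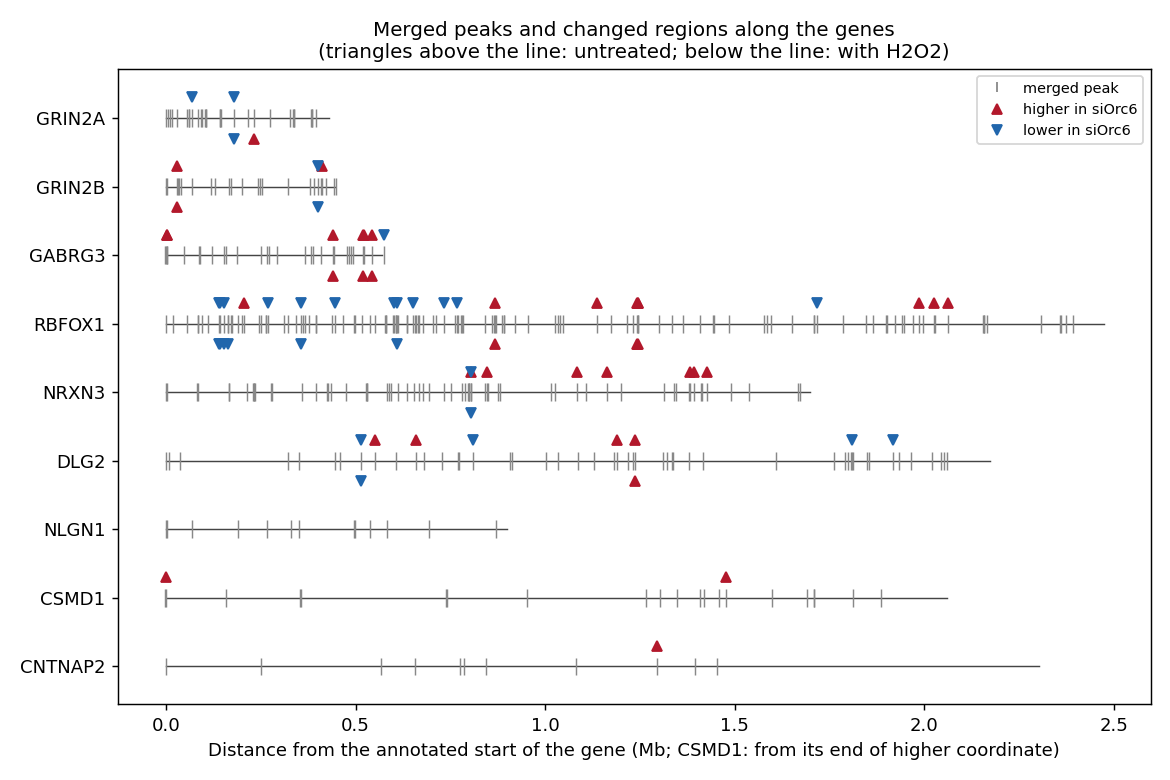
Position of each merged peak along the 9 genes, in Mb from the annotated start of the gene (for CSMD1 from its end of higher coordinate, for RBFOX1 from its annotated end of lower coordinate) as grey ticks; triangles mark peaks at regions called higher (red) or lower (blue) in siOrc6, above the line untreated and below it with H2O2. RBFOX1 carries most of its 123 peaks toward its left end, while CNTNAP2 has 11 peaks and a gap of 850 kb.

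Accessibility was highest around the starts. The 8 genes with a listed start together had 17 merged peaks between 5 kb before and 10 kb after the annotated start, or 142 per Mb. From 10 to 100 kb the density was 36.1 per Mb, from 100 to 500 kb 35.3 per Mb and beyond 500 kb 26.7 per Mb. GRIN2A and GRIN2B, the densest genes, end before 500 kb, so the last value is not from the same genes as the others. Density beyond 500 kb was above that from 10 to 100 kb in GABRG3, NRXN3, DLG2 and CNTNAP2, and below it in RBFOX1 and NLGN1. A decline past 10 kb is therefore not shown. The course with distance was not alike in all genes. CNTNAP2 had 1 peak next to its start, none from 10 to 100 kb and 1 from 100 to 500 kb, whereas RBFOX1 had 30 peaks from 100 to 500 kb, or 75 per Mb, measured from its annotated end of lower coordinate.

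Each of the 9 genes had a peak within 1 kb of one annotated end, and in 8 genes it was listed in all 4 conditions. Peak signal, the value the authors' caller gave each peak, was read as a percentile within its own list; because the lists differ in length, percentiles are set side by side and not compared. The peak at the GRIN2A start (10180738 to 10183061) ranked at percentile 97.2 in siOrc6 with H2O2, 97.6 in siGl3 with H2O2, 98.1 in siOrc6 untreated and 96.0 in siGl3 untreated. The DLG2 start peak (85627690 to 85629236) ranked at 94.4 in both siOrc6 and siGl3 with H2O2, 93.7 in siOrc6 untreated and 93.3 in siGl3 untreated; it also lies at an end of TMEM126B, the single other protein-coding gene within the 9 spans. The NLGN1 start peak (173395045 to 173396201) ranked at 90.7 in siOrc6 with H2O2, 90.4 in siGl3 with H2O2, 90.8 in siOrc6 untreated and 90.0 in siGl3 untreated. These 3 starts thus ranked among the stronger peaks of every list.

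The CNTNAP2 start peak (146115675 to 146117216), the strongest of that gene, ranked at 82.2 in siOrc6 with H2O2, 73.4 in siGl3 with H2O2, 84.1 in siOrc6 untreated and 75.6 in siGl3 untreated. At the GABRG3 start (26970621 to 26971763) the percentiles were 83.0 in siOrc6 with H2O2, 82.4 in siGl3 with H2O2, 77.2 in siOrc6 untreated and 57.5 in siGl3 untreated. At the GRIN2B end of higher coordinate (13981245 to 13982312), which holds its first starts, they were 44.9 in siOrc6 with H2O2, 53.9 in siGl3 with H2O2, 48.9 in siOrc6 untreated and 22.6 in siGl3 untreated. The NRXN3 start (78170189 to 78170876) ranked at 66.5 in siOrc6 with H2O2, 65.7 in siGl3 with H2O2, 72.5 in siOrc6 untreated and 66.2 in siGl3 untreated. The RBFOX1 end of lower coordinate (5239579 to 5240122) ranked at 56.1 in siOrc6 with H2O2, 22.2 in siGl3 with H2O2, 38.9 in siOrc6 untreated and 23.9 in siGl3 untreated. None of these 5 peaks was among the regions the authors called changed. CSMD1 was the exception to presence in every list: its end peak (4994248 to 4995094) ranked at 33.4 in siOrc6 with H2O2, was not listed in siGl3 with H2O2, and ranked at 59.7 in siOrc6 untreated and 25.1 in siGl3 untreated.

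**Figure D3:**
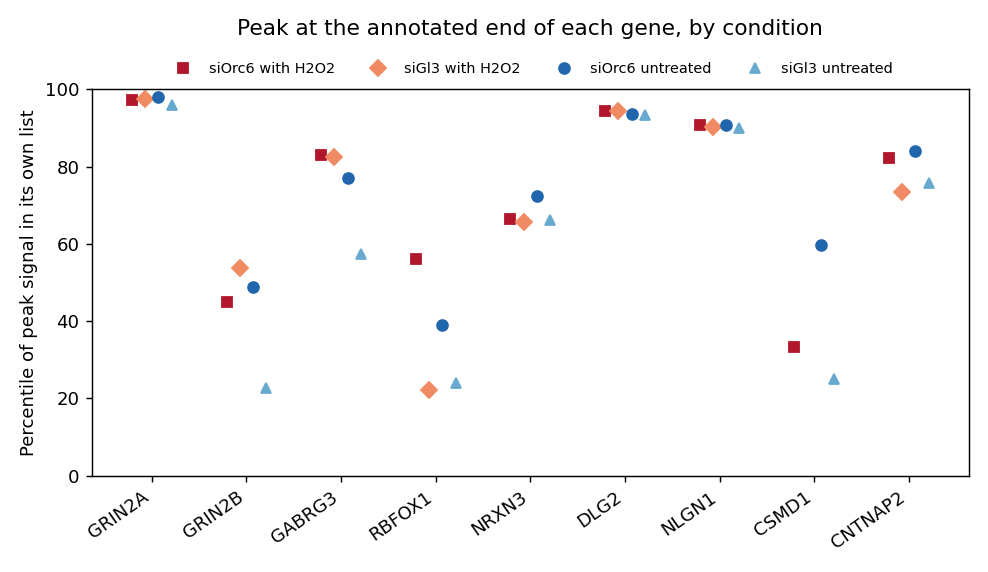
Percentile of peak signal within its own list (vertical axis, 0 to 100) of the peak at the annotated end of each gene, with 1 symbol per condition and no error, since each condition has 1 list. GRIN2A, DLG2 and NLGN1 lie at 90.0 or above in all 4 lists, and CSMD1 has no symbol for siGl3 with H2O2.

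In 5 genes the strongest peak listed in all 4 conditions lay away from the ends. In NRXN3 it was a peak of 2507 bp (78253338 to 78255844) at percentiles 98.5 in siOrc6 with H2O2, 99.3 in siGl3 with H2O2, 99.0 in siOrc6 untreated and 99.4 in siGl3 untreated. In GABRG3 it was 27453780 to 27455408, at 95.4 to 98.7 over the 4 lists, in RBFOX1 5850760 to 5852764, at 90.6 to 97.6, and in GRIN2B 13591382 to 13592702, at 83.7 to 92.9. In CSMD1 the strongest was 3283928 to 3284521, at 56.1 to 60.2. No CSMD1 peak ranked above percentile 61.8 in any list, a value reached by 3574459 to 3575024 in siGl3 untreated.

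Peaks at a listed start or annotated end numbered 19; 14 of these (73.7%) were in all 4 lists, their median width was 1068 bp, and their median percentiles were 70.7 in siOrc6 with H2O2, 73.4 in siGl3 with H2O2, 73.8 in siOrc6 untreated and 68.4 in siGl3 untreated. The other 345 peaks were in all 4 lists in 185 cases (53.6%), with a median width of 397 bp and median percentiles of 41.4 in siOrc6 with H2O2, 42.2 in siGl3 with H2O2, 39.5 in siOrc6 untreated and 45.2 in siGl3 untreated.

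Of the 25 listed start windows, 18 overlapped a merged peak and 15 one listed in all 4 conditions, against 18464 of 34961 windows of all genes (52.8%) with a peak. DLG2 had the most starts and the fewest open ones for its number, with a peak at 4 of 9. RBFOX1 had one at 3 of 5, GRIN2B and NRXN3 at 3 of 3 each, NLGN1 at 2 of 2, and GRIN2A, GABRG3 and CNTNAP2 at their single start. Some windows share a peak: both starts of RBFOX1 near 6019024 lie in 1 peak, as do 2 of GRIN2B. The 18 windows with a peak held a median of 22 CpG dinucleotides (range 5 to 38) and 67.5% G or C. The 7 without a peak, all in DLG2 and RBFOX1, held a median of 4 (range 3 to 8) and 45% G or C. Over all genes the medians were 25 CpG with a peak and 4 without, so the 25 windows show the contrast that windows show in general. The exceptions were NRXN3 start 78170373, with 5 CpG, and NRXN3 start 78403719 and DLG2 start 84317337, with 6 each, all 3 with a peak in every list.

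The printed windows show this contrast within a gene: DLG2 start 85628373 held 22 CpG and start 84273280 held 4, and RBFOX1 start 6019024 held 30 and start 7332845 held 5. Windows rich in CpG were not all open in every list. RBFOX1 start 6483386, with 38, lacked a peak in siGl3 with H2O2, and GRIN2B start 13980845, with 36, had one with H2O2 alone. The peak at this GRIN2B start (13980751 to 13981117) lies close to another, 13981245 to 13982312, that was in all 4 lists. Short motifs were searched on both strands, where the letters are counted wherever they occur. TGANTCA, a looser form of the AP-1 motif, was in 2 of 25 windows (DLG2 start 84317337 and NLGN1 start 173395952) and in 7.68% of all windows. The AP-1 consensus has C or G as the middle base, which was G in the DLG2 window and T in the NLGN1 window. GGGCGG, a GC box, was in 12 of 25 and in 45.0% of all, and TATAAA in 2 of 25 and in 11.5% of all. No motif contains another, but GGGCGG holds a CpG and so adds to the CpG count. A match is a description of the letters, not of a bound site.

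**Figure D4:**
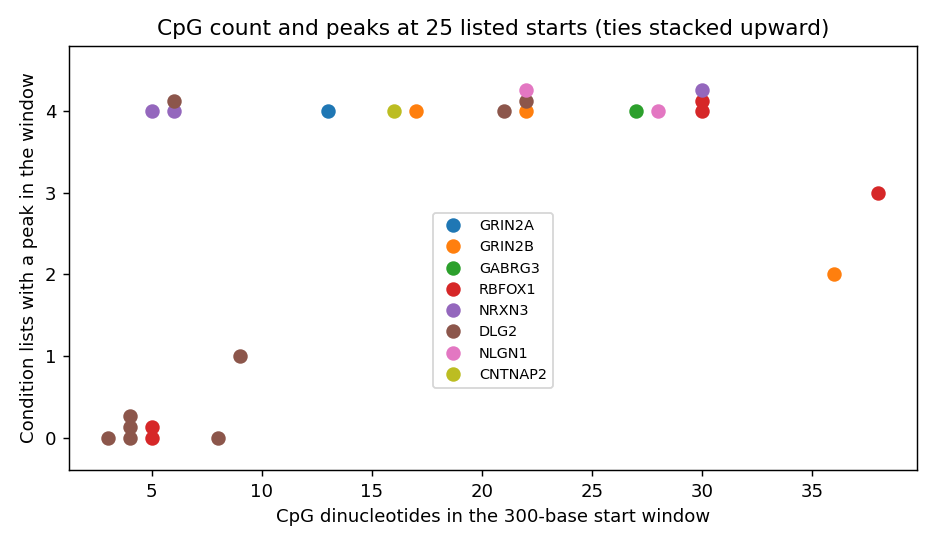
Number of condition lists (0 to 4) with a peak in each of 25 start windows, against the CpG dinucleotides in its 300 bases, coloured by gene, with ties stacked upward. The 7 windows at 0 lists hold 3 to 8 CpG, and windows in all 4 lists hold 5 to 30.

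Between conditions, fewer peaks were listed with H2O2 than without, and by a larger share than over all peaks. The 9 genes held 243 peaks in siOrc6 with H2O2, 251 in siGl3 with H2O2, 312 in siOrc6 untreated and 321 in siGl3 untreated. The ratio of H2O2 to untreated was 0.779 in siOrc6 and 0.782 in siGl3, against 0.828 and 0.836 over the other long genes and 0.895 and 0.899 over all peaks. With every list held to the length of the shortest by its strongest peaks, the ratios over the 9 genes were 0.887 in siOrc6 and 0.907 in siGl3, and over the other long genes 0.940 and 0.936. At equal list length the ratios were thus nearer to 1, and those of the 9 genes were again below those of the other long genes. These ratios are given without an interval, so a difference beyond counting error is not shown. The ratio of siOrc6 to siGl3 was 0.968 with H2O2 and 0.972 untreated, close to the 0.955 and 0.965 of the other long genes. At equal list length its direction turned, to 1.04 with H2O2 and 1.06 untreated, against 1.02 in both treatments over the other long genes.

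NLGN1 held 7 peaks in siOrc6 with H2O2, 6 in siGl3 with H2O2 and 12 in each untreated list, the lowest ratios of the 9 genes (0.583 and 0.5). NRXN3 held 40 in each H2O2 list, 58 in siOrc6 untreated and 53 in siGl3 untreated. DLG2 held 28 in siOrc6 with H2O2, 30 in siGl3 with H2O2 and 41 in each untreated list. RBFOX1 held 77 in siOrc6 with H2O2, 85 in siGl3 with H2O2, 100 in siOrc6 untreated and 111 in siGl3 untreated. CSMD1 held 13 in each H2O2 list, 18 in siOrc6 untreated and 16 in siGl3 untreated. In these 5 genes both H2O2 lists held fewer peaks than both untreated lists.

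Of the other 4 genes, 2 also had fewer peaks in both H2O2 lists and 2 overlapped between treatments. GRIN2A held 25 in siOrc6 with H2O2, 26 in siGl3 with H2O2, 28 in siOrc6 untreated and 30 in siGl3 untreated, so both its H2O2 lists held fewer. GRIN2B held 20 in siOrc6 with H2O2, 24 in siGl3 with H2O2, 20 in siOrc6 untreated and 22 in siGl3 untreated, so its counts overlap between treatments. GABRG3 held 24 in siOrc6 with H2O2, 20 in siGl3 with H2O2, 26 in siOrc6 untreated and 28 in siGl3 untreated, so both its H2O2 lists held fewer. CNTNAP2 held 9 in siOrc6 with H2O2, 7 in siGl3 with H2O2, 9 in siOrc6 untreated and 8 in siGl3 untreated, which also overlap.

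**Figure D5:**
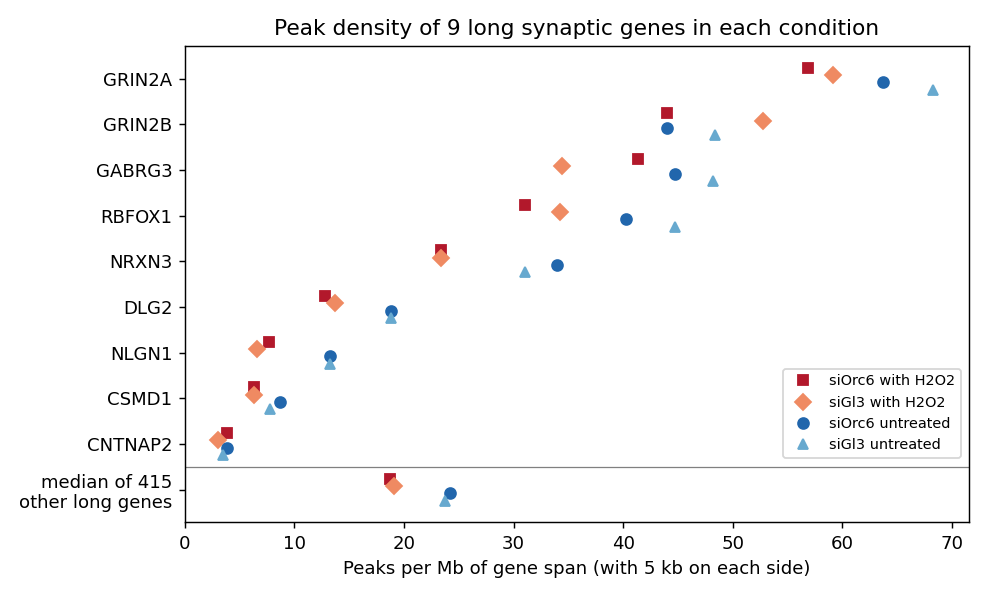
Peaks per Mb of span in each condition list for the 9 genes, and the median of the 415 other long genes in the bottom row, with 1 symbol per list and no error bars, since each condition has 1 list. GRIN2A lies at 56.9 to 68.3 per Mb and CNTNAP2 at 3.02 to 3.89 per Mb, and in NRXN3 both H2O2 lists lie at 23.4 per Mb, below 34.0 in siOrc6 untreated and 31.0 in siGl3 untreated.

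Of the 364 merged peaks, 199 (54.7%, 95% Wilson interval 49.5% to 59.7%) were in all 4 lists, against 58.2% of 9511 in the other long genes and 62.1% of all merged peaks. That interval covers counting error only, takes peaks as independent and leaves out the spread between genes. Peaks in untreated lists alone numbered 87 (23.9%), against 21.0% in the other long genes and 16.2% overall. Of these, 30 were in both untreated lists: 10 in RBFOX1, 6 in DLG2, 5 in NRXN3, 3 in NLGN1, 2 each in GRIN2A and GABRG3, 1 each in GRIN2B and CSMD1, and none in CNTNAP2. Peaks in H2O2 lists alone numbered 12 (3.30%), against 3.84% in the other long genes and 5.88% overall. Of these, 5 (1.37%) were in both H2O2 lists, against 0.725% in the other long genes and 1.45% overall. These 5 lay in GRIN2B (13539136 to 13539374, and 13980751 to 13981117 at the printed start), RBFOX1 (5560157 to 5560419), DLG2 (83820058 to 83820247) and CNTNAP2 (147197066 to 147197364). They were weak, at percentiles 1.48 to 33.7 in siOrc6 with H2O2 and 1.87 to 25.4 in siGl3 with H2O2. The most stable gene by this count was GRIN2A, with 23 of 30 merged peaks (76.7%) in all 4 lists, and the least NLGN1, with 5 of 13 (38.5%).

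The median percentile of the peaks was 43.4 in siOrc6 with H2O2, 45.0 in siGl3 with H2O2, 40.5 in siOrc6 untreated and 45.6 in siGl3 untreated, against 45.5 in siOrc6 with H2O2, 45.9 in siGl3 with H2O2, 45.7 in siOrc6 untreated and 46.0 in siGl3 untreated over the other long genes. CNTNAP2 had low medians at 15.5 in siOrc6 with H2O2, 25.8 in siGl3 with H2O2, 25.5 in siOrc6 untreated and 31.3 in siGl3 untreated, and so did CSMD1 at 27.0 in siOrc6 with H2O2, 20.3 in siGl3 with H2O2, 26.0 in siOrc6 untreated and 22.8 in siGl3 untreated. GRIN2A had 44.9 in siOrc6 with H2O2, 55.7 in siGl3 with H2O2, 56.4 in siOrc6 untreated and 58.0 in siGl3 untreated. NLGN1 had 20.5 in siOrc6 with H2O2, 40.3 in siGl3 with H2O2, 24.3 in siOrc6 untreated and 31.0 in siGl3 untreated. The 3 genes with the fewest peaks per Mb thus had medians of at most 40.3 in every list, on 6 to 18 peaks. Denser genes fell below 40.3 too, each in a single list. GRIN2B had 26.6 and GABRG3 39.0 in siGl3 with H2O2, and DLG2 had 32.1 and NRXN3 37.3 in siOrc6 untreated. Their medians in the other lists, and those of GRIN2A and RBFOX1 in every list, were above 40.3.

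The authors also list regions that differ between siOrc6 and siGl3 within a treatment, by position and direction in siOrc6, with no fold or p-value. These were counted as merged peaks that overlap a changed region by at least 1 bp, among merged peaks with a peak in the same treatment. With H2O2, 9 of 277 peaks (3.25%) in the 9 genes were at a higher region, against 1.13% of all merged peaks and 1.72% in the other long genes; 10 of 277 (3.61%) were at a lower one, against 1.42% and 2.25%. Untreated, 31 of 352 (8.81%) were at a higher region, against 7.28% of all merged peaks and 8.5% in the other long genes, and 21 of 352 (5.97%) at a lower one, against 5.04% and 5.51%. The untreated shares lie near this background. The shares with H2O2 lie above it on counts of 9 and 10, and these lists were in view when the genes were chosen, so nothing is read from them. Without RBFOX1, 6 of 186 (3.23%) were at a higher and 4 of 186 (2.15%) at a lower region with H2O2, and 22 of 233 (9.44%) and 9 of 233 (3.86%) untreated.

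Long genes offer many places for a changed region: with H2O2 24.3% of the 424 long genes held a higher region and 27.6% a lower one, and untreated 73.3% and 54%. Of the 9 genes, 5 held a higher and 5 a lower region with H2O2, and 7 and 6 untreated. The 9 genes are longer than most long genes, so these shares are not matched for length. Per Mb of span they held 0.609 higher and 0.761 lower regions with H2O2, on 8 and 10 regions, against 0.401 and 0.546 in the other long genes. Untreated, they held 2.28 and 1.52 per Mb, against 2.21 and 1.57. NLGN1 held none. Together 54 merged peaks were changed: 8 higher in both treatments, 9 lower in both, 23 higher and 12 lower untreated alone, and 1 higher and 1 lower with H2O2 alone, with none in opposite directions. All 4 lists held 14 of them, and 3 lay at a listed start or annotated end.

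In the adhesion genes, NRXN3 had 7 peaks higher untreated, the strongest of them 79016497 to 79017750 (at 89.1 in siOrc6 with H2O2, 87.3 in siGl3 with H2O2, 91.7 in siOrc6 untreated and 89.9 in siGl3 untreated). Its single lower peak (78974662 to 78975264), lower in both treatments, was not listed in siOrc6 with H2O2, and ranked at 51.3 in siGl3 with H2O2, 14.8 in siOrc6 untreated and 60.1 in siGl3 untreated. CNTNAP2 had 1 higher peak untreated (147412749 to 147413109), listed in both siOrc6 lists at 8.72 with H2O2 and 40.5 untreated, and in neither siGl3 list.

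In the receptor genes, GABRG3 had 6 peaks higher untreated, 3 of them also higher with H2O2, and 1 lower. The 3 were 27410989 to 27411409, 27490866 to 27491526 and 27514617 to 27514904. The last was in all 4 lists, at 43.4 in siOrc6 with H2O2, 11.8 in siGl3 with H2O2, 49.8 in siOrc6 untreated and 33.8 in siGl3 untreated. Both higher peaks near its start (26972581 to 26972962 and 26974207 to 26974606) were called untreated. GRIN2B had 1 peak higher in both treatments (13953880 to 13954619), 1 higher untreated (13569803 to 13570607) and 1 lower in both (13580790 to 13581517). GRIN2A had 1 peak higher with H2O2 alone (9950537 to 9951293), which was listed at 38.8 in siOrc6 with H2O2, not in siGl3 with H2O2, and at 49.1 in siOrc6 untreated and 32.9 in siGl3 untreated. It also had 1 peak lower in both treatments (10003501 to 10003897) and 1 lower untreated (10114404 to 10114817).

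DLG2 had 4 higher and 4 lower peaks untreated, and 1 of each also with H2O2. The peak higher in both (84390292 to 84390929) ranked at 72.2 in siOrc6 with H2O2, 53.3 in siGl3 with H2O2, 76.5 in siOrc6 untreated and 56.4 in siGl3 untreated. The peak lower in both (85114847 to 85115186) was in the siGl3 lists alone, at 45.0 with H2O2 and 45.4 untreated. The widest of its other changed peaks were 85076492 to 85077198, higher untreated, and 83711248 to 83711743, lower untreated. At the printed inner start 84437806, the higher peak (84437561 to 84437915) was in the untreated siOrc6 list alone, at 18.1. CSMD1 had 2 higher peaks untreated, 1 of them the end peak given above.

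RBFOX1 carried the most changed peaks by number, 22 of 123, while GABRG3 had the larger share, 7 of 29. Their direction in RBFOX1 differed along the gene. Below its first listed start, 6019024, lay 63 merged peaks (80.3 per Mb), of which 6 were lower and none higher with H2O2, and 11 lower and 1 higher untreated. At or above that start lay 60 (35.3 per Mb), of which 3 were higher and none lower with H2O2, and 8 higher and 1 lower untreated. The split at this start was chosen after the positions were seen and has no test. The widest changed peaks of each direction were 7302979 to 7304198, higher untreated, and 5508665 to 5510133, lower untreated. Lower in both treatments were 5379392 to 5380329, 5380778 to 5381289, 5393054 to 5393639, 5596783 to 5597207 and 5847659 to 5848127. Of these, 5393054 to 5393639 ranked at 48.6 in siOrc6 with H2O2, 73.7 in siGl3 with H2O2, 41.9 in siOrc6 untreated and 70.8 in siGl3 untreated. The peak 5379392 to 5380329 ranked at 34.1 in siOrc6 with H2O2, 65.6 in siGl3 with H2O2, 44.1 in siOrc6 untreated and 76.6 in siGl3 untreated. Untreated, a single lower region of the authors (5379391 to 5381289) spans both this peak and 5380778 to 5381289. Higher in both treatments were 6106158 to 6106440 and a pair of neighbours near a listed start. At the printed start 6483386 the higher peak (6483006 to 6483523) ranked at 35.7 in siOrc6 with H2O2, was not listed in siGl3 with H2O2, and ranked at 23.4 in siOrc6 untreated and 1.87 in siGl3 untreated. Its neighbour 6483629 to 6484234, also higher in both treatments, ranked at 64.6 in siOrc6 with H2O2, 57.9 in siGl3 with H2O2, 53.4 in siOrc6 untreated and 30.2 in siGl3 untreated. In each treatment a single higher region of the authors overlaps both neighbours, so the pair is 1 call counted as 2 merged peaks.

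Other genes of the same pathways were counted by whether their span held a changed region. Over all protein-coding genes, of any length, that share was 2.38% (higher) and 3.46% (lower) with H2O2, and 17.5% and 11.8% untreated. Over the 424 long genes it was 24.3% and 27.6% with H2O2, and 73.3% and 54% untreated. The lists below had median lengths of 866046 bp (adhesion), 315446 bp (glutamate receptors), 82490 bp (GABA-A receptors) and 141499 bp (scaffolds). Neither share is matched to these lengths, so the counts are given as a description. Of 24 other synaptic adhesion genes, 15 of them at least as long as GRIN2A, 6 held a higher and 4 a lower region with H2O2, and 18 and 9 untreated. TENM2, a teneurin that binds latrophilins, had 9 changed regions, 5 of them higher untreated, and OPCML, an adhesion protein anchored to the membrane, had 8. Of 22 other glutamate receptor genes, 5 and 5 held one with H2O2, and 10 and 11 untreated, GRID1 with 8 regions. Of 15 other GABA-A receptor genes, 2 held a higher and none a lower region with H2O2, and 3 and 1 untreated. GABRA5, which lies near GABRG3 on chromosome 15, had 2 higher regions untreated and no lower one. Of 15 scaffold genes 3 and 4 held one with H2O2, and 4 and 7 untreated, DLGAP1 with 14 regions and GPHN, which anchors inhibitory receptors, with 11. Median densities were 22.2 merged peaks per Mb for adhesion genes, 35.4 for glutamate receptors, 31.9 for GABA-A receptors and 67.9 for scaffolds. The paralogs CSMD2, CSMD3, RBFOX2 and RBFOX3 had 46.8, 8.99, 23.3 and 146.7 per Mb.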

How the data were processed

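Per the labels, 8 ATAC-seq libraries formed 4 conditions of 2. Per the submitters' processing notes the authors' tools were Genrich, edgeR, Bowtie2, SAMtools, Picard, deepTools and bcl2fastq 2.20, with build hg38; their roles, read shifting and duplicate handling are not stated there. The deposited peak lists hold a display score, a peak signal (a score of the authors' caller, lowest just above 200.0) and −log10 values of p and q, as the authors' caller wrote them; the peak signal alone was used, to rank peaks inside each list. Changed regions were deposited as positions with no stated threshold. The lists held 97816 (siOrc6 with H2O2), 103674 (siGl3 with H2O2), 109304 (siOrc6 untreated) and 115292 (siGl3 untreated) peaks on chromosomes 1 to 22 and X; 147 to 168 more per list, on other sequences, were not used. The depth per library is unknown.

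Overlapping or touching peaks of the 4 lists were merged, and an overlap of 1 bp counted. A straight-line fit on gene length was tried in place of division by the span. Positions and start windows came from RefSeq (GRCh38.p14), where all 9 genes matched the gene table and 8 the start windows. Changed regions start 1 bp before the peaks they match, and each has a peak on its higher side, so presence there is not a separate result. The genes and lists were chosen with earlier results of these data known. Named genes are the 9, the 4 of each pathway list with most changed regions and the 3 most alike in pattern; named peaks are those at starts and ends, those changed in both treatments and the widest changed ones. Genes of at least 1.5 Mb, the strongest peaks, peaks with H2O2 alone, those near the GABRG3 start and the RBFOX1 split were added after their values were seen. Interval code was checked on simulated intervals and equalled base-by-base counts in 20 of 20 rounds. Software was pandas 2.3.3, scipy 1.17.1, numpy 2.4.6 and matplotlib 3.10.9 under Python 3.11.15. Some items that the rule names are withheld and not reported here.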

Additional observations from a re-analysis of the deposited data

How the results depend on the processing

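Of 101 recomputed values for the 9 genes together, 90 stayed close to the value given. Close meant inside its 95% interval for ratios of conditions and the share in all 4 lists. It meant within the standard deviation over genes for peak percentiles, and within a fixed fold for densities, counts and the percentile among long genes. These limits are wide: the untreated siOrc6 to siGl3 ratio counted as close at 1.06, against 0.972. Some settings could not move a value, as joining nearby peaks left the counts of each list unchanged. With the stronger 50% of each list, the median density was 15.2 per Mb (11.1 over the other long genes) and the median percentiles were 70.5 in siOrc6 with H2O2, 68.1 in siGl3 with H2O2, 69.6 in siOrc6 untreated and 69.7 in siGl3 untreated, as the ranks removed were the lower ones. Peaks at changed regions then numbered 2 higher and 4 lower with H2O2, and 11 higher and 9 lower untreated. Without RBFOX1, chosen after seeing the data, 4 were lower with H2O2 and 9 lower untreated. Of 53 values of single genes 9 moved, all with the stronger 50% of each list. The median percentile among long genes was 66.7, and 51.7 without RBFOX1, 58.8 against genes of 300 kb or more and 75.2 by the length fit. No paired analysis was possible because each condition has 1 list with no value per library, and for the same reason no library could be left out.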

Other observations

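The surroundings of the genes differed as much as the genes. In the 1 Mb beyond the end of lower coordinate, GRIN2B had 128 merged peaks, NRXN3 85, GRIN2A 82, RBFOX1 78, GABRG3 41, DLG2 37, NLGN1 35, CNTNAP2 5 and CSMD1 4. Beyond the end of higher coordinate GRIN2A had 88, DLG2 75, RBFOX1 57, GRIN2B 53, CNTNAP2 32, NRXN3 22, GABRG3 17, and NLGN1 and CSMD1 9 each. CSMD1 thus had at most 9 peaks on both sides, and CNTNAP2 (5) and NLGN1 (9) on 1 side, with GABRG3 next at 17.

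Of 14 genes of common fragile sites the median density was 21.5 merged peaks per Mb. A higher region was held by 4 with H2O2 and 9 untreated, and a lower one by the same numbers, where all long genes had shares of 24.3% (higher) and 27.6% (lower) with H2O2, and 73.3% and 54% untreated. AUTS2 had 10 changed regions, and MACROD2 and WWOX 9 each.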
